A study of Mus musculus with 2 samples.

Results

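The immediate-early and dissociation response genes are 41 of the 31053 genes in the count tables of a mouse lung single-cell experiment. They were found by symbol, and each symbol matched 1 row. The list was selected on measured values: it was drawn up after the levels of several of these genes were known to differ between the normoxia and hypoxia libraries, so every hypoxia/normoxia ratio below describes 2 libraries and is not evidence that the list differs between the conditions.

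Immediate-early genes are transcribed within minutes of a stimulus without new protein synthesis, mainly through serum response factor, CREB and NF-κB proteins that are already in the cell. Many of them encode transcription factors of the AP-1, EGR and NR4A families, and others encode the phosphatases, RNA decay factors and inhibitors that end the same signals. The same genes are well known to be induced when tissue is enzymatically dissociated into single cells, and in the lung they are also targets of growth factors, shear stress and inflammation.

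Lungs came from C57/B6 mice 2 to 4 months old, kept in normoxia or in hypoxia for 3 weeks. The mice were wild type, and there was 1 library per condition. The study's text speaks of several animals exposed to hypoxia, and how many entered each library and how long each was dissociated were not found in the sources used here. The lungs were digested enzymatically in a gentleMACS dissociator, and cells carrying CD45 (leukocytes) and then CD326 (epithelium) were removed on beads in a pair of steps of 30 min each at 4 °C, after which transcripts were captured with the 10x Chromium 3′ kit. With 1 library per condition no test between conditions was possible. Intervals are 95% and cover counting error only, and differences between animals, between dissociations and between conditions cannot be told apart. Because the kit reads transcript 3′ ends, UMIs do not grow with transcript length. A level is the UMIs (unique molecular identifiers, which count captured transcripts) of a gene in a group of cells, scaled to counts per 1000000 UMIs of that group (CPM), and a member is called lower or higher when its level differs by at least 1.5-fold between the libraries and at least 20 UMIs of it were counted.

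The promoter sequences of members that stand for the main signalling inputs are shown first, because the values below are about the transcripts they drive. RefSeq promoter windows (GRCm38.p6) were found for 36 of the 41 members. *Egr1*, *Egr3*, *Ier2*, *Myc* and *Nfkbiz* had none and were not searched. The bases printed end at the last base before the annotated transcription start, and capitals mark, on either strand, the cyclic AMP response element TGACGTCA (CRE), the CArG box bound by serum response factor, or a κB site bound by NF-κB. In *Fos* and *Btg1*, which had none of these in the window shown, capitals mark the shorter element TGACG, which is contained in the CRE. *Btg1*, whose level differed least between the libraries among the abundant members, is shown for comparison. The windows are *Fos* (chr12:85473740-85473889, plus strand), *Btg2* (chr1:134079156-134079405, minus strand), *Dusp1* (chr17:26508473-26508622, minus strand), *Ppp1r15a* (chr7:45526269-45526418, minus strand), *Plk2* (chr13:110394894-110395043, plus strand), *Zfp36* (chr7:28379229-28379378, minus strand), *Nfkbia* (chr12:55492648-55492797, minus strand) and *Btg1* (chr10:96616851-96617000, plus strand).
Fos: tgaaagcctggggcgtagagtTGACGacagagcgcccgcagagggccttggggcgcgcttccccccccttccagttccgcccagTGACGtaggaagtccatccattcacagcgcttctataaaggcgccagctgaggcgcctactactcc
Btg2: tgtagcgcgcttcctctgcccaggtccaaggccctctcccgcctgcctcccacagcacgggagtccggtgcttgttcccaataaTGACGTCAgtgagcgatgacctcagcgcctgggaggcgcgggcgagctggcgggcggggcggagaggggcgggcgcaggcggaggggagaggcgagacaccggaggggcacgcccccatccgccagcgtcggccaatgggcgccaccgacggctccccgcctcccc
Dusp1: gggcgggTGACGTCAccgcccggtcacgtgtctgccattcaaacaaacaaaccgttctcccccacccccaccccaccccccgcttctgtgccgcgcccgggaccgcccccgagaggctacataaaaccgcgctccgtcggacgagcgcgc
Ppp1r15a: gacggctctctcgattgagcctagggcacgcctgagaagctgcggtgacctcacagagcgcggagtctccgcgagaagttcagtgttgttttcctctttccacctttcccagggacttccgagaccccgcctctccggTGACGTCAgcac
Plk2: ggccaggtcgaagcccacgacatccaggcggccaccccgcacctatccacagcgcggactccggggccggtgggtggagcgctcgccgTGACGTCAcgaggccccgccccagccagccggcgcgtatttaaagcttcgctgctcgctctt
Zfp36: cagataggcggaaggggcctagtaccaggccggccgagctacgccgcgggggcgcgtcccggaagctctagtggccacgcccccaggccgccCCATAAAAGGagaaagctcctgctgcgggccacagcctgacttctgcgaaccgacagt
Nfkbia: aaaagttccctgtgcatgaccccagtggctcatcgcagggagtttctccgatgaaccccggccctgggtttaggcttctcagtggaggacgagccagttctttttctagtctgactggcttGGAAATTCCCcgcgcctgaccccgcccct
Btg1: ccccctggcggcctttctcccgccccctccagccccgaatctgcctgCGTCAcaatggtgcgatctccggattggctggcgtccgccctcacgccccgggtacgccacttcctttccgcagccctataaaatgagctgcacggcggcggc
In the 250 bases before the start, the CRE was found in 5 of the 36 members (13.9%; *Maff*, *Dusp1*, *Btg2*, *Ppp1r15a* and *Plk2*) and in 1.77% of 27025 genes. The CArG box was found in 3 members (8.33%; *Egr2*, *Dusp5* and *Zfp36*) and in 1.62% of genes. A κB site was found in 6 members (16.7%; *Fos*, *Fosb*, *Fosl2*, *Egr2*, *Nfkbia* and *Tnfaip3*) and in 5.67% of genes. The element TGACG was found in 18 members (50%) and in 19.8% of genes, and ACGTG, the core that hypoxia-inducible factors bind and that can overlap TGACG, in 12 members (33.3%) and in 18.5% of genes. The CRE of *Dusp1* lies 143 to 136 bases before the start, that of *Plk2* 62 to 55 and that of *Ppp1r15a* 12 to 5, while the TGACG element of *Fos* nearest to the start lies 66 to 62 bases before it. A match is a description of letters and says nothing of binding in these cells. A missing match covers the 250 bases alone, as sites farther from the start were not searched. The *Fos* gene itself is at chr12:85473890-85477273 on the plus strand and *Jun*, the member with the most UMIs, at chr4:95049034-95052222 on the minus strand (GRCm38, GENCODE). The 41 members lie on 19 chromosomes.

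The libraries held 2223 normoxia and 809 hypoxia cells with 7630683 and 2685345 UMIs. After removal of cells outside 200 to 4000 genes or above 5% mitochondrial content, 1348 and 689 cells remained, with a median of 3453 and 2224 UMIs. The mitochondrial limit removed 37.6% of the normoxia and 13.2% of the hypoxia cells, and 1 barcode occurred in both libraries. No doublet caller was run, so the gene limit was the sole guard against doublets. Cells were grouped in 29 clusters computed without the 41 members and named from marker genes, and names are given as "-like". The main class was EC-like (endothelial), with 995 normoxia and 621 hypoxia cells, in which the level of *Cdh5* (VE-cadherin) was 2131 and 2346 CPM in the same order and that of *Pecam1* 1306 and 1472 CPM. *Col1a1*, a fibroblast collagen, was at 4.61 and 2.84 CPM in these cells. Many EC-like clusters came nearly whole from a single library, for example the *Neurl3*-led cluster with 176 normoxia cells and 1 hypoxia cell and the *Ntrk2*-led cluster with 6 and 193. Leaving out the members did not make the clusters independent of them. *Ier5l*, *Socs3*, *Atf3* and *Ier3* were among the leading genes of the *Neurl3*-led cluster, and *Ier3*, *Socs3* and *Sertad1* among those of the *Hes1*-led cluster (112 normoxia and 4 hypoxia cells).

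In EC-like cells the 41 members together had a summed level of 28314 CPM in the normoxia library and 10425 CPM in the hypoxia library, which is a hypoxia/normoxia ratio of 0.368 (0.363 to 0.374). Of the 41 members, 39 had at least 20 UMIs, and of these 33 were lower in hypoxia and 0 higher, while over all 10498 genes with that many UMIs 12.7% were lower and 9.54% higher. The median log2 ratio of the 39 members was -1.33, and that of all genes 0.02. *Myc*, with 11 normoxia UMIs and 0 hypoxia UMIs, and *Nr4a3*, with 16 and 3, did not reach the minimum. Since the list was chosen with such ratios known, its counts are descriptive. Restricted to the 8 EC-like clusters in which both libraries had 10 cells or more, the ratio of the summed level was 0.506, and 25 of the 37 members with enough UMIs were lower, against 14.8% of all genes in those cells. There, 14 members moved by over 1.5-fold from their value in all EC-like cells. *Gadd45b* (0.989), *Fosl2* (0.988), *Csrnp1* (0.901), *Mcl1* (0.814), *Gadd45g* (0.733) and *Rhob* (0.673) were no longer lower by the fold, and *Egr2* and *Dusp5* no longer had enough UMIs. *Fos* was at 0.431, *Egr1* at 0.315, *Atf3* at 0.399, *Btg2* at 0.523 and *Ier3* at 0.528, while *Tnfaip3* was further from 1, at 0.264 (44 and 4 UMIs). Some of the 14 moves rest on few UMIs in these clusters, such as those of *Maff* (16 and 7), *Plk3* (38 and 3) and *Zc3h12a* (41 and 6). The restriction kept 555 of 995 normoxia and 195 of 621 hypoxia EC-like cells, and it changed the mix of endothelial subtypes. Clusters of aerocytes, a capillary subtype described below, held 119 and 58 of the kept cells. They held 336137 of the hypoxia UMIs, while all hypoxia EC-like cells held 2109573. The part of this mix in the moves was not tested. The restriction left out clusters filled by a single library. Among these were normoxia clusters of high member level, such as the *Neurl3*-led (46559 CPM) and *Hes1*-led (35507 CPM) ones, and some of lower level, such as a *Hey1*-led one (10684 CPM). The plot of levels by cell group shows the same sum for each group of cells.

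**Figure D1:**
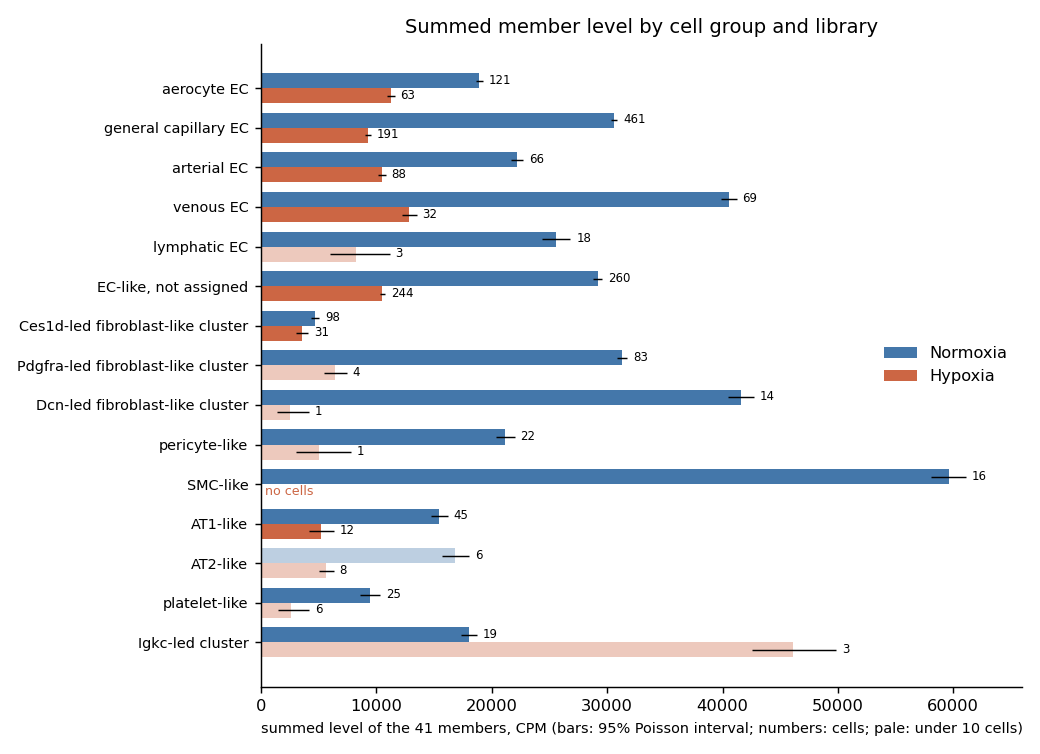
Summed level of the 41 members (CPM, horizontal axis from 0) in each group of cells, with a bar for each library, 95% Poisson intervals and the number of cells beside each bar; pale bars have fewer than 10 cells. The normoxia bar is longer in every plotted group with cells of both libraries except the Igkc-led cluster, where 3 hypoxia cells reached 46086 CPM against 18024 CPM.

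Among the AP-1 subunits, the leucine zipper proteins that pair on AP-1 sites, *Jun* was the member with the highest level in EC-like cells of both libraries, at 4809 CPM in normoxia and 2012 CPM in hypoxia (ratio 0.418, 0.405 to 0.433). *Junb* had 2444 and 770 CPM (0.315) and *Jund*, which is less dependent on stimulation, 2140 and 959 CPM (0.448). The FOS group was uneven. *Fos* had 1506 CPM in normoxia and 347 CPM in hypoxia (0.230, 0.213 to 0.249), and *Fosb* 525 and 51.2 CPM (0.0976, 0.0796 to 0.118). *Fosl2*, a member of the same group, was low in both libraries and nearer to 1 than the JUN genes, at 38.5 and 23.2 CPM (0.604). *Atf3*, a stress-induced partner that represses as a homodimer, had 1033 and 246 CPM (0.238). The small MAF protein gene *Maff* rested on 68 and 29 UMIs, and its ratio of 0.746 had an interval of 0.466 to 1.17. For the 8 AP-1 subunits together the ratio was 0.353, with 7 lower, against 12.7% of all genes in EC-like cells.

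The 3 EGR zinc finger factors were the role with the lowest ratio, 0.177 (0.165 to 0.189) for their sum. All 3 were lower, against 12.7% of all genes in EC-like cells. *Egr1* was second only to *Jun* in normoxia, at 2566 CPM, and was at 457 CPM in hypoxia (0.178, 0.166 to 0.190). *Egr3* had 193 UMIs in normoxia and 13 in hypoxia (52.3 and 6.16 CPM, 0.118), and *Egr2* 26 and 1, a ratio of 0.0673 with an interval from 0.00164 to 0.410. The orphan nuclear receptors of the NR4A family did not share a pattern: *Nr4a1* was at 75.6 and 18.0 CPM (0.238, 0.165 to 0.335), while *Nr4a2* was at 11.7 and 12.8 CPM, from 43 and 27 UMIs. *Nr4a2* was the only member with a ratio above 1 in EC-like cells, 1.10, and its interval of 0.653 to 1.82 includes 1.

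**Figure D2:**
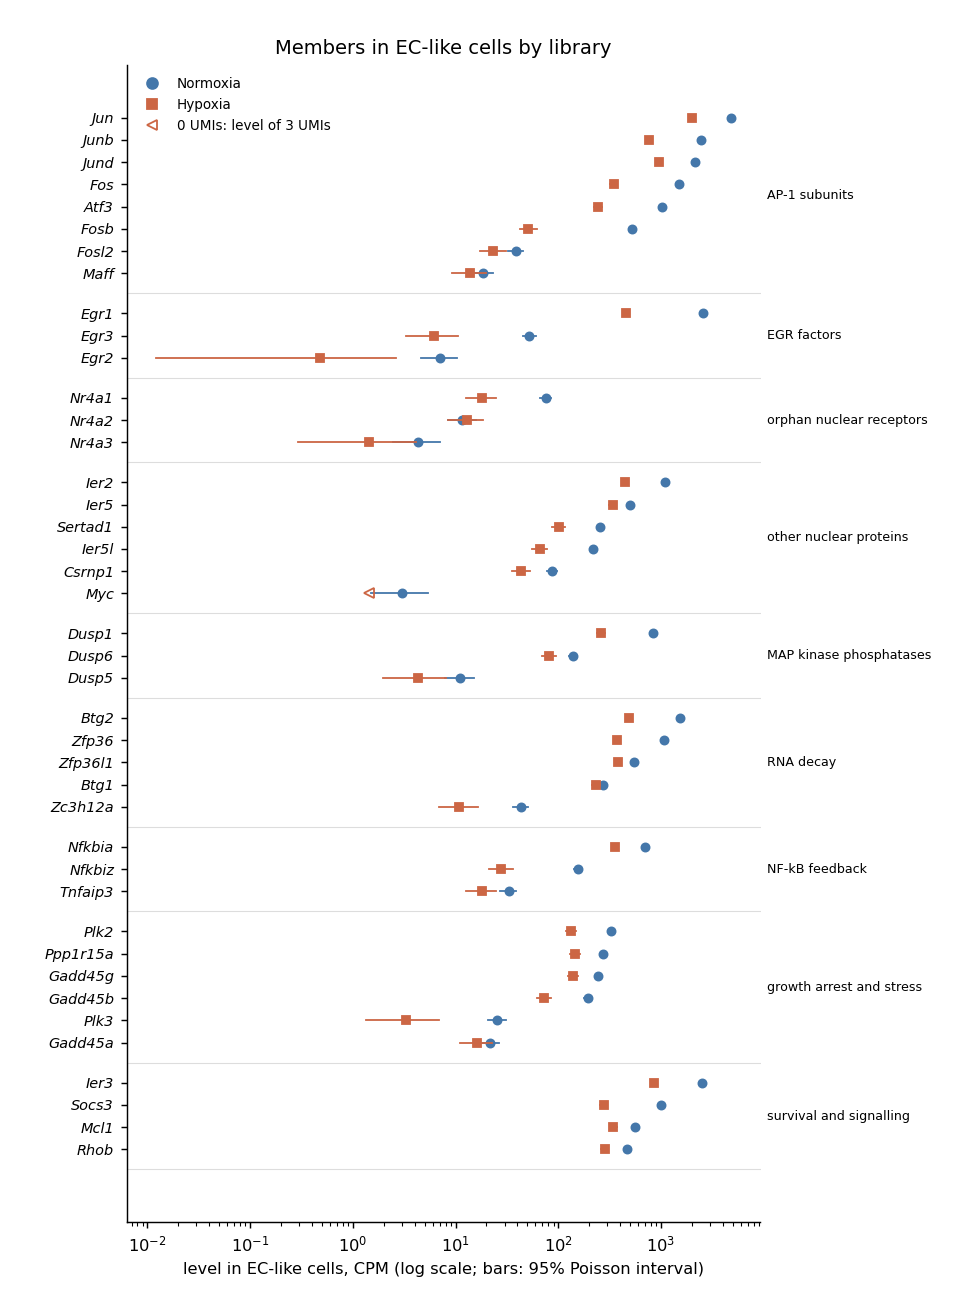
Level of each member in EC-like cells (CPM, log scale) in normoxia (circles) and hypoxia (squares), grouped by role, with 95% Poisson intervals; the open triangle marks *Myc* in hypoxia, listed at 0 UMIs, at the level of 3 UMIs. The symbols lie farthest apart for *Egr2*, *Fosb*, *Egr3*, *Plk3* and *Egr1*, and nearly coincide for *Nr4a2* and *Btg1*.

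Other nuclear proteins of the list had a summed ratio of 0.462. *Ier2* led them at 1092 CPM in normoxia and 447 CPM in hypoxia (0.409), and *Ier5*, which regulates heat shock factor activity, came next at 502 and 338 CPM (0.673, 0.617 to 0.735). *Sertad1*, a cofactor of cell cycle regulators, had 253 and 101 CPM (0.399). *Ier5l* had 219 and 65.9 CPM (0.301), and *Csrnp1* 87.0 and 43.6 CPM (0.501). *Myc* was at 2.98 CPM in normoxia, 2.10-fold above the level that 3 UMIs would give in the hypoxia library, and the interval of its ratio was 0 to 0.697. The MAP kinase phosphatases, which switch off the kinases that induce these genes, had a summed ratio of 0.353. *Dusp1*, the nuclear phosphatase with a CRE in its promoter, was at 832 and 261 CPM (0.314), *Dusp6*, specific to ERK, at 139 and 81.5 CPM (0.587), and *Dusp5* at 11.1 and 4.27 CPM from 41 and 9 UMIs.

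The paralogs among the RNA decay factors lay apart. *Zfp36* (tristetraprolin, which binds AU-rich elements) was at 1069 and 372 CPM (0.348, 0.322 to 0.376), while its paralog *Zfp36l1* was at 548 and 383 CPM (0.698, 0.643 to 0.758). *Btg2*, an adaptor of the deadenylase complex, was at 1547 and 493 CPM (0.318, 0.298 to 0.340), while its paralog *Btg1* was at 273 and 235 CPM (0.860, 0.771 to 0.958). *Zc3h12a*, the endonuclease Regnase-1, was at 43.1 and 10.9 CPM (0.253). Of the genes grouped here as NF-κB feedback, *Nfkbia* (IκBα) was at 697 and 356 CPM (0.511), *Nfkbiz* (IκBζ) at 156 and 28 CPM (0.180, 0.135 to 0.235) and *Tnfaip3* (A20) at 32.8 and 18.0 CPM (0.549).

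The growth arrest and stress genes had a summed ratio of 0.473. *Plk2*, a polo-like kinase, was at 327 and 134 CPM (0.409), and its relative *Plk3* at 25.5 and 3.32 CPM (0.13, 0.051 to 0.279). *Ppp1r15a* (GADD34), which restores translation after stress, was at 276 and 147 CPM (0.533). The 3 GADD45 genes ranged from 0.379 (*Gadd45b*, 193 and 73.0 CPM) through 0.577 (*Gadd45g*, 242 and 139 CPM) to 0.753 (*Gadd45a*, 21.4 and 16.1 CPM, interval 0.488 to 1.14). Among the survival and signalling genes, *Ier3*, an early response gene linked to cell survival, came next after *Egr1* in normoxia at 2485 CPM and was at 852 CPM in hypoxia (0.343). *Socs3*, the inhibitor of JAK kinases, was at 992 and 277 CPM (0.279, 0.256 to 0.305). *Mcl1*, an anti-apoptotic BCL2 relative with a short-lived transcript, was at 554 and 345 CPM (0.622), and *Rhob*, a small GTPase, at 466 and 283 CPM (0.606).

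The 6 members with enough UMIs that were neither lower nor higher were *Nr4a2*, *Btg1*, *Gadd45a*, *Maff*, *Zfp36l1* and *Ier5*. Only *Btg1*, *Zfp36l1* and *Ier5* among them had over 200 UMIs in each library, and their intervals stayed below 1. Just inside the limit of 1.5-fold, a ratio of 0.667, lay *Mcl1* (0.622), *Rhob* (0.606) and *Fosl2* (0.604), and just outside it *Ier5* (0.673) and *Zfp36l1* (0.698). As a share of all member UMIs of EC-like cells, *Jun* took 17.0% in normoxia and 19.3% in hypoxia, *Egr1* 9.06% and 4.38%, *Fos* 5.32% and 3.33%, and *Btg1* 0.966% and 2.26%.

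EC subtypes were set per cell from their own markers: general capillary EC, aerocytes (the *Car4*- and *Ednrb*-rich capillary cells of gas exchange), arterial, venous and lymphatic EC. The markers of 240 EC-like cells lay near the limit of this assignment, and 260 normoxia and 244 hypoxia cells were not assigned. In normoxia the summed member level was highest in venous EC, at 40558 CPM in 69 cells, followed by general capillary EC (30587 CPM, 461 cells), lymphatic EC (25546 CPM, 18 cells), arterial EC (22169 CPM, 66 cells) and aerocytes (18917 CPM, 121 cells). In hypoxia the order was different and the range narrower, with 12834 CPM in 32 venous, 11222 CPM in 63 aerocytes, 10489 CPM in 88 arterial and 9252 CPM in 191 general capillary EC. Only 3 lymphatic cells came from the hypoxia library. The ratios were 0.302 (0.294 to 0.311) in general capillary EC, 0.316 (0.3 to 0.334) in venous EC, 0.473 (0.455 to 0.492) in arterial EC and 0.593 (0.572 to 0.615) in aerocytes. These differences between subtypes were not tested. Depth differed as well, with a median of 3372 UMIs in normoxia and 1717 in hypoxia for general capillary EC and 4876 and 3167.5 for venous EC. For arterial EC it was 4050.5 and 3969.5, and for aerocytes 5884 and 4941. The part of depth in the subtype ratios was not tested. When arterial cells were taken by cluster, they numbered 22 in normoxia and 12 in hypoxia, and their ratio was 0.279. Most hypoxia cells set as arterial per cell thus lay in clusters named otherwise. The arterial values of single genes below are those of the cells set per cell. The ratio of general capillary EC was 0.458 in the clusters that both libraries filled with 10 cells or more. *Plvap*, a marker used to set general capillary EC, was itself at 1022 CPM in normoxia and 149 CPM in hypoxia over all EC-like cells, and its part in these values was not tested.

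By count, 35 of the 37 members with enough UMIs were lower in general capillary EC (17.1% of all genes there), 28 of 30 in venous EC (16.0% of all genes), 24 of 31 in arterial EC (14.0% of all genes) and 20 of 31 in aerocytes (15.7% of all genes). Individual members followed the subtypes differently. *Fos* was at 1255 and 160 CPM in general capillary EC (0.128, 0.102 to 0.158) and at 1158 and 699 CPM in aerocytes (0.603, 0.521 to 0.696). *Gadd45b* was at 165 and 27.0 CPM in the former (0.164) and at 288 and 264 CPM in the latter (0.918, 0.711 to 1.18). *Ier3* was at 3103 and 710 CPM in general capillary EC (0.229) but at 1274 and 919 CPM in arterial EC (0.722, 0.621 to 0.839). *Ier5* was nearly level in aerocytes (310 and 309 CPM) and in arterial EC (345 and 384 CPM, 1.11, 0.854 to 1.45). *Mcl1* was at 406 and 384 CPM in aerocytes, where *Socs3* had 284 and 72.4 CPM (0.255), so that genes of a single role lay far apart in these cells. *Fosb* had the lowest or next to lowest ratio of the members in each of these 4 subtypes, with 366 UMIs in normoxia and 1 in hypoxia in venous EC and 290 and 12 in aerocytes. The other abundant members kept the same order, with the ratio in general capillary EC below that in aerocytes. For *Junb* these ratios were 0.241 (2738 and 659 CPM) and 0.635 (1446 and 918 CPM), for *Atf3* 0.100 (1238 and 124 CPM) and 0.487 (709 and 345 CPM), and for *Btg2* 0.217 (1861 and 403 CPM) and 0.522 (864 and 451 CPM). *Jund* lay between 0.326 in venous EC and 0.664 in aerocytes, *Zfp36* between 0.229 and 0.547 and *Ier2* between 0.265 in venous EC and 0.561 in arterial EC. *Nr4a2* had at most 16 UMIs in any subtype and library, which is too few to order the subtypes. *Rhob* had almost the same ratio in all 4 subtypes, from 0.601 to 0.651. *Jun* led in each of these 4 subtypes in both libraries.

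**Figure D3:**
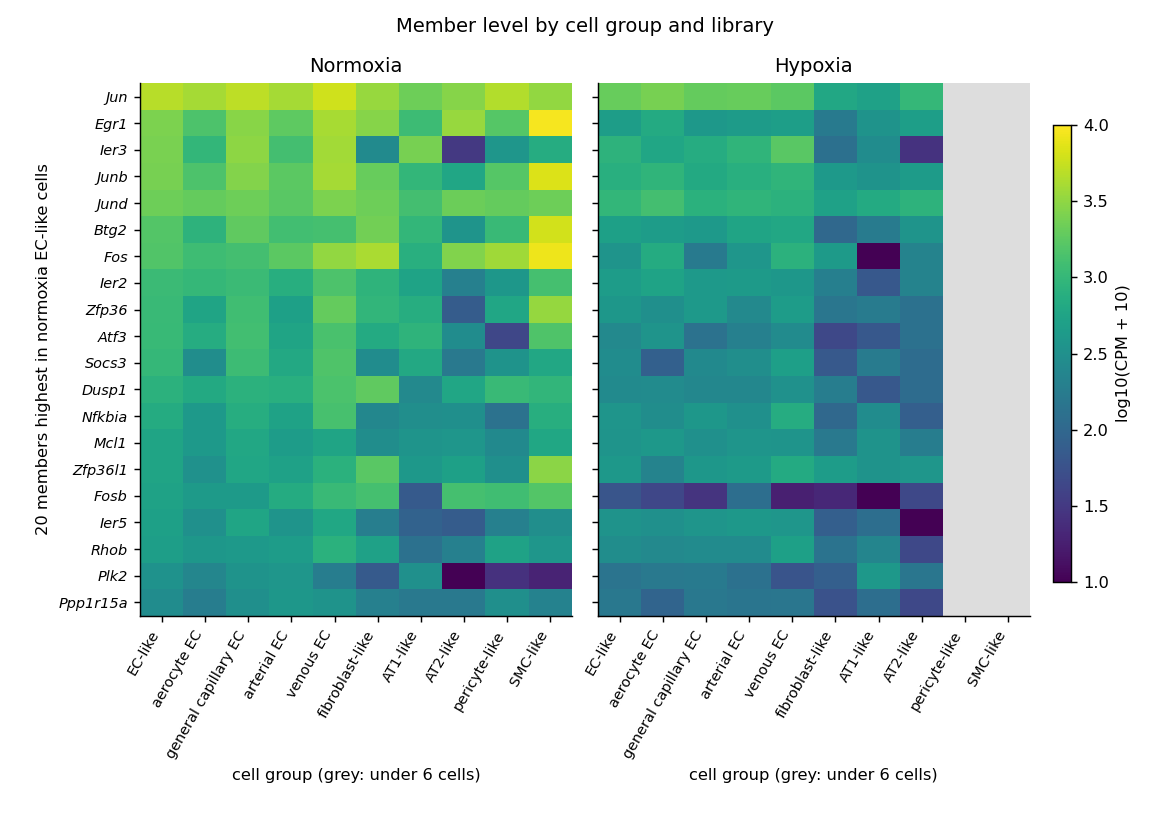
Level of the 20 members highest in normoxia EC-like cells, as log10(CPM + 10) by colour, in each group of cells (columns) and library (panels); grey columns have fewer than 6 cells. Jun is the brightest row across the endothelial columns, Egr1 and Fos are the brightest cells of the SMC-like column, and the hypoxia panel is darker almost throughout.

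Fibroblast-like cells, 195 in normoxia and 36 in hypoxia, had a summed level of 28665 and 4373 CPM, a ratio of 0.153 (0.137 to 0.169). In them 31 of the 34 members with enough UMIs were lower and 1 was higher, but 36.3% of all genes were lower and 19.2% higher in this smaller set of cells. The class held 836352 UMIs in normoxia and 85072 in hypoxia, so the minimum was reached mostly through normoxia. Some members counted as lower had intervals that include 1, such as *Csrnp1* (22 and 0 UMIs, 0 to 1.79) and *Sertad1* (85 and 3 UMIs, 0.0702 to 1.05). The clusters within this class differed both in member level and in the library that filled them. The *Pdgfra*-led cluster had 83 normoxia cells at 31294 CPM and 4 hypoxia cells at 6419 CPM, and the *Dcn*-led cluster 14 normoxia cells at 41598 CPM and 1 hypoxia cell. The *Ces1d*-led cluster, which held 31 of the 36 hypoxia cells, was low in both libraries, with 4646 CPM in 98 normoxia cells and 3539 CPM in hypoxia, a ratio of 0.762 (0.643 to 0.9). Its cells were shallow, with a median of 984 UMIs over both libraries, against 6899 in the *Pdgfra*-led and 9834 in the *Dcn*-led cluster. In normoxia EC-like cells the summed level was 11084 CPM at 500 to 1000 UMIs and 31556 CPM at 4000 to 8000 UMIs. The part of depth in the low level was not tested. Over the whole class, *Fos*, not *Jun*, led in normoxia, at 4141 CPM against 3459 CPM, and was at 423 CPM in hypoxia. *Egr1* was at 2862 and 165 CPM, *Btg2* at 2310 and 94.0 CPM and *Dusp1* at 1854 and 176 CPM. Within the *Ces1d*-led cluster *Jund* led in normoxia, at 729 CPM against 306 CPM in hypoxia. There *Fos* was at 361 and 172 CPM (47 and 9 UMIs) and *Egr1* at 261 and 134 CPM (34 and 7 UMIs). The levels of *Jun* (392 and 536 CPM), *Junb* (207 and 344 CPM) and *Ier2* (215 and 287 CPM) ran the other way in that cluster. They rest on 51 and 28, 27 and 18, and 28 and 15 UMIs in the same order, and these differences were not tested. *Jun* and *Ier2* did not reach the fold at which a member is called higher. Over the whole class *Nr4a1* had 0 UMIs in hypoxia and 339 in normoxia (405 CPM), 11.5-fold above the level that 3 UMIs would give in hypoxia. The interval of its ratio was 0 to 0.108. The single member called higher was *Gadd45a*, which rested on 28 and 6 UMIs (2.11, 0.713 to 5.19). *Zfp36l1* was far more abundant in normoxia fibroblasts (1709 CPM) than in normoxia EC-like cells (548 CPM), and *Ier3* far less (264 against 2485 CPM). In the normoxia *Ces1d*-led cluster, however, *Zfp36l1* was at 376 CPM, below the EC-like value, and *Ier3* was at 238 CPM.

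Smooth muscle-like cells were found in normoxia alone, 16 cells, in a cluster led by *Hhip* and *Aspn* with the SMC marker *Acta2* and the fibroblast marker *Lum* among its 10 leading genes. Their summed level of 59597 CPM was the highest of the normoxia groups. *Egr1* led at 9136 CPM, followed by *Fos* at 8326, *Junb* at 6918 and *Btg2* at 6249 CPM. *Nr4a1* reached 2552 CPM there, against 75.6 CPM in normoxia EC-like cells, and *Nr4a2* and *Nr4a3* 608 and 395 CPM against 11.7 and 4.34 CPM, so all 3 nuclear receptors were most abundant in this small cluster among the classes described. Pericyte-like cells (22 in normoxia, 1 in hypoxia) had 21137 CPM in normoxia, led by *Jun* at 4443 and *Fos* at 3721 CPM, with *Atf3* at only 33.2 CPM. In the 45 normoxia AT1-like cells (alveolar type 1) *Ier3* led at 2392 CPM, ahead of *Jun* at 2185 CPM, and the sum was 15460 CPM against 5165 CPM in 12 hypoxia cells (0.334, 0.268 to 0.412). *Fos* had 0 UMIs in hypoxia AT1-like cells and 766 CPM in normoxia, 4.55-fold above the level that 3 UMIs would give in hypoxia. *Plk2* was at 310 and 393 CPM in AT1-like cells, the hypoxia value resting on 7 UMIs. In AT2-like cells (6 and 8) *Egr1* led in normoxia at 3397 CPM and *Jun* in hypoxia at 980 CPM. The platelet-like cells were lowest of the normoxia classes, at 9446 CPM.

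To read the spread between cells of a library, all EC-like cells were brought to 1000 UMIs by random thinning, and 161 normoxia and 138 hypoxia cells with fewer were dropped. The 834 normoxia cells had a median of 18 member UMIs per 1000, with quartiles of 6 and 43 and a range from 0 to 117. The 483 hypoxia cells had a median of 6, with quartiles of 3 and 10 and a range from 0 to 84. The libraries overlapped: 54 hypoxia cells (11.2%) lay above the normoxia median, and 174 normoxia cells (20.9%) lay below the hypoxia median. In normoxia the cells were spread over the whole range, with 35.9% of them under 10 member UMIs per 1000, whereas 73.7% of the hypoxia cells were. The 10% of cells with the most member UMIs held 28.4% of them in normoxia and 42.6% in hypoxia. The share of hypoxia cells above the normoxia median of all EC-like cells was 9.29% in general capillary EC, 10.3% in venous EC, 12.7% in aerocytes and 13.3% in arterial EC, and the shares of normoxia cells were 54.2%, 56.9%, 33.9% and 36.5%.

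**Figure D4:**
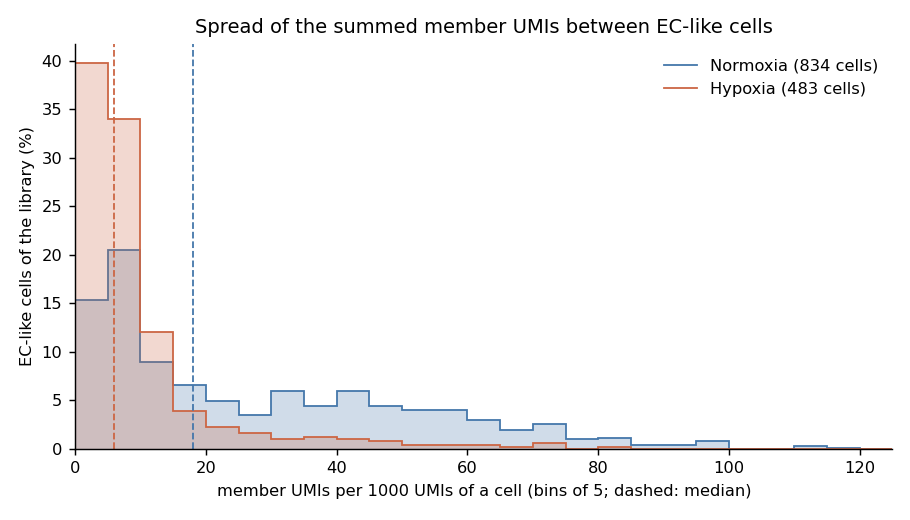
Distribution of EC-like cells (percent of the cells of each library, vertical axis) over the member UMIs per 1000 UMIs of a cell (horizontal axis, bins of 5), with dashed medians of 18 in normoxia and 6 in hypoxia. The normoxia cells form a broad tail beyond 30, and the hypoxia cells gather below 15 with a thin tail.

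Of single members in normoxia EC-like cells, *Ier3* had the largest variance over mean (5.66), followed by *Egr1* (5.26), *Fos* (4.52), *Junb* (3.80) and *Jun* (3.75), where sampling alone gives a value of 1. This measure can rise with the mean, so it does not by itself order members of unlike mean. The standard deviation of *Jun* was 4.10 at a mean of 4.48 UMIs, and that of *Fosb* 1.32 at a mean of 0.526. In hypoxia *Ier3* was again highest (5.94), then *Atf3* (4.87), *Fosb* (4.67), *Fos* (4.60) and *Egr1* (4.29). The hypoxia values rest on few cells: *Fosb* had 28 UMIs after thinning, 10 of them in a single cell. *Atf3* had 88, with 12 in a single cell. *Mcl1* had a variance over mean of 1.18 and 1.06, close to sampling alone, and *Dusp6* 1.17 and 0.976. Their normoxia means were low, 0.554 and 0.144 UMIs per cell, and a low mean by itself brings the measure nearer to 1. *Fosb* UMIs were the most concentrated of these abundant members, with 70.6% of them in the 10% of normoxia cells with the most *Fosb*, against 30.2% for *Jun*. Their means were 0.526 and 4.48 UMIs per cell, and 75.1% and 10.9% of cells had none. A lower mean by itself raises such a share, and this part was not separated. Across cells, *Junb* followed the rest of the members most closely, with a Pearson correlation of 0.760 over 834 normoxia cells and 0.728 over 483 hypoxia cells, cells that share a library and a thinned depth. Next came *Egr1* in normoxia (0.715, against 0.673 in hypoxia) and *Ier3* in hypoxia (0.697, against 0.628 in normoxia). *Mcl1* (0.311 and 0.0353), *Zfp36l1* (0.187 and 0.160), *Btg1* (0.257 and 0.0979) and *Dusp6* (0.0329 and 0.0423) had lower values, as did *Rhob* (0.237 and 0.146) and *Plk2* (0.209 and 0.209). The closest pairs were *Junb* and *Egr1* in normoxia (0.636) and *Junb* and *Zfp36* in hypoxia (0.614).

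Cells with 10 to under 30 member UMIs per 1000, which both libraries held, were compared for the mix of members. There were 200 such normoxia and 96 such hypoxia cells, with a mean of 17.4 and 15.1 member UMIs. *Jun* took 21.6% and 20.8% of their member UMIs and *Jund* 10.6% and 10.2%, close between the libraries. *Egr1* took 4.54% and 3.46%. *Btg2* took 6.55% and 3.39% (228 and 49 UMIs), *Dusp1* 3.99% and 1.66%, *Fos* 4.86% and 2.84%, and *Fosb* 2.01% and 0.484%. *Junb* (6.72% and 9.41%), *Ier3* (5.86% and 8.17%), *Ier2* (3.74% and 5.40%) and *Btg1* (1.58% and 2.77%) took more in hypoxia. The differences in mix rest on few UMIs for most genes and were not tested.

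Other properties of the libraries differed along with the member level. In EC-like cells mitochondrial transcripts were at 25823 CPM in normoxia and 13909 CPM in hypoxia and ribosomal protein transcripts at 78566 and 91762 CPM. The nuclear RNA *Malat1* was at 45134 and 33163 CPM. Transcripts of other cells were higher in hypoxia, with haemoglobin at 26.6 and 102.9 CPM, the club cell gene *Scgb1a1* at 303 and 1198 CPM and the alveolar type 2 gene *Sftpc* at 124 and 208 CPM. Within bins of equal mitochondrial share the ratio of the summed level ran from 0.275 (3 to 4%) to 0.461 (4 to 5%), and in normoxia the level was highest in the cells with the least, 38531 CPM below 1% and 17500 CPM at 4 to 5%. Within bins of equal depth it ran from 0.326 (2000 to 4000 UMIs) to 0.468 (500 to 1000 UMIs). The normoxia level was thus the higher one in each bin of either measure. The same 8 EC-like clusters filled by both libraries had ratios from 0.279 (*Atp13a3*-led, arterial) to 0.848 (*Gm29237*-led). Among the EC-like clusters with fewer normoxia cells, the level was higher in hypoxia in a *Gm26870*-led cluster (4738 CPM in 4 normoxia cells and 9041 CPM in 76 hypoxia cells) and in the *Pard3bos1*-led cluster (9570 CPM in 6 and 10454 CPM in 75). The part of RNA quality, free RNA and dissociation in these values was not tested.

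Genes related to the list but outside it were read in EC-like cells in the same way. Over all 10498 genes with at least 20 UMIs in these cells, 12.7% were lower and 9.54% higher. Of 42 other immediate-early genes, 33 had at least 20 UMIs, and 17 of these were lower and 0 higher, with a median log2 ratio of -0.61. The highest in normoxia were the shear-responsive factors *Klf2* (1978 and 1456 CPM, 0.736) and *Klf4* (1637 and 995 CPM, 0.608), and *Id3* (899 and 1050 CPM, 1.17), a BMP target. *Ptgs2*, the inducible cyclooxygenase, had 284 UMIs in normoxia and 4 in hypoxia (0.0246, 0.00667 to 0.0638), the lowest ratio of that list, and the normoxia UMIs came from 24 of the 995 cells. *Sgk1*, a kinase gene, was at 351 and 482 CPM (1.37, 1.26 to 1.49), the highest. Well below the median of that list also lay the matricellular genes *Thbs1* (0.198), *Cyr61* (91.9 and 18.5 CPM, 0.201) and *Ctgf* (35.0 and 13.3 CPM), *Rgs2* (0.229), *Errfi1* (0.276), *Trib1* (0.371), *Cebpb* (0.401), *Mafk* (0.407) and the Notch target *Hes1* (621 and 255 CPM, 0.411). Well above it lay *Id1* (424 and 520 CPM, 1.23), a BMP target like *Id3*, *Crem* (1.21) and *Spry2* (1.32). Of 17 other NF-κB targets, 11 had enough UMIs, with 5 lower and 1 higher; the most abundant was *Irf1* (441 and 256 CPM), followed by *Icam1*, the leukocyte adhesion molecule (437 and 149 CPM, 0.342), and *Nfkb1* (135 and 116 CPM). *Selp* (P-selectin) had 49 and 2 UMIs (0.0714) and *Birc3* 140 and 36 (0.450), while *Nfkbie* (18 and 15 UMIs, 1.46) and *Nfkbib* (68 and 60 UMIs, 1.54) lay above 1. The 16 upstream kinases and factors, which carry the signal to these promoters, all had enough UMIs. None of them was lower and 1 was higher (*Map2k1*, 81 and 80 UMIs, 1.73), a share near that of all genes that were higher. Their median log2 ratio was 0.03. *Elk3* was at 343 and 307 CPM, *Mapk3* at 307 and 419 CPM and *Mkl2* at 120 and 138 CPM.

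The heat shock genes, which dissociation is also known to induce, lay mostly above 1 in EC-like cells. Of 13, all with enough UMIs, 1 was lower and 5 higher, against 12.7% and 9.54% of all genes, with a median log2 ratio of 0.35. *Hsp90ab1* was at 1684 and 2764 CPM (1.64, 1.58 to 1.70), *Hspa8* at 1180 and 1819 CPM (1.54) and *Hsph1* at 38.2 and 74.9 CPM (1.96, 1.55 to 2.48). *Hspa1a*, the classical inducible chaperone, was at 844 and 942 CPM (1.12), and its near-identical copy *Hspa1b* at 676 and 598 CPM (0.885), so reads shared between the copies leave each of the values uncertain. *Dnajb4* was the lower one (70.5 and 46.5 CPM, 0.659), and *Dnajb1* was at 202 and 135 CPM (0.667). In aerocytes 11 of the 13 were higher, against 12% of all genes there, and 0 lower. Fewer were higher in the other groups. Arterial EC had 0 lower and 5 higher of 12, against 740 and 940 of 5294 genes, with a median log2 ratio of 0.56. General capillary EC had 2 lower and 5 higher, against 1449 and 1140 of 8481 genes, with a median log2 ratio of 0.41. Venous EC had 3 lower and 2 higher, against 657 and 862 of 4119 genes, with a median log2 ratio of 0.15. In fibroblast-like cells 5 were lower and 0 higher, with a median log2 ratio of -0.46, against 36.3% of all genes lower and 19.2% higher.

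**Figure D5:**
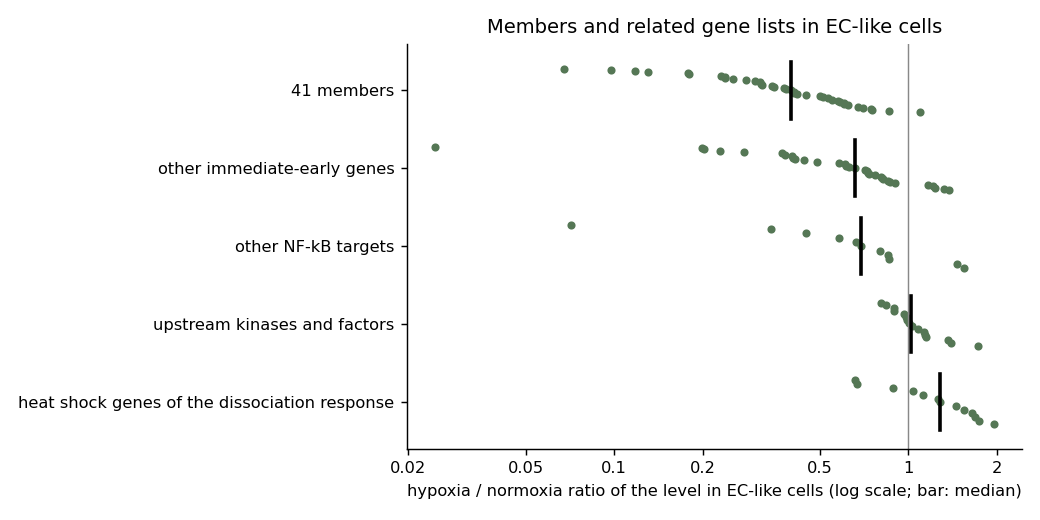
Hypoxia/normoxia ratio of the level in EC-like cells (log scale) for each gene with at least 20 UMIs (points) of 5 lists (rows), with the median of each list as a bar and a line at 1. The members lie farthest below 1, the upstream kinases and factors are centred on 1, and most heat shock genes lie above it.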

How the data were processed

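Gene-by-cell UMI counts of 1 normoxia and 1 hypoxia library were used as deposited. Per the file headers the authors made these counts with Cell Ranger 6.1.2, the reference being mm10 by the methods of the study, and the values are whole numbers that were not normalized. Cells outside 200 to 4000 genes or above 5% mitochondrial UMIs were left out here. Scanpy 1.11.5 clustered the rest (2000 variable genes per library, members left out, 30 components, 15 neighbours, Leiden resolution 2), and clusters were named from marker lists. The rules that kept the *Igkc*-led cluster unnamed and required an arterial marker were set after the data were seen.

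The 41 members and the other lists were chosen with earlier results of these data known. Every member was named, the 10 highest got further values, and of each other list the 3 highest genes and those 1.5-fold from its median were named, apart from RNA quality genes. UMIs were summed per group of cells, with exact Poisson intervals for levels and exact binomial intervals for ratios (SciPy 1.17.1). A gene needed 20 UMIs over both libraries. A count of 0 was set against the level of 3 UMIs, without the counting error of the other library. The interval code was tested on simulated data. Other cell limits, clusterings, scalings and thinning were tried.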

Additional observations from a re-analysis of the deposited data

Results flagged for a closer look

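In the *Igkc*-led cluster the summed level of the 41 members was higher in hypoxia, with a ratio of 2.56 (18024 CPM in 19 normoxia cells and 46086 CPM in 3 hypoxia cells), while in EC-like cells the ratio was 0.368. The opposite directions drew attention to it. The hypoxia value rests on 614 member UMIs of 3 cells, and the cluster mixes B cell genes (*Igkc*, *Cd79a*) with myeloid genes (*Il1b*, *Ccl3*) that a depletion of CD45-positive cells would remove. The difference between this cluster and EC-like cells was not tested.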

How the results depend on the processing

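In EC-like cells the members lower in hypoxia numbered 24 (2-fold limit) to 36 (2.5% mitochondrial limit) under the alternatives tried, against 33, and 0 were higher in each. The share of all genes was 12.7% lower and 9.54% higher at the main setting and 14.8% lower in the clusters filled by both libraries. It was not taken under the other alternatives, so their counts have no such share beside them. The EC-like ratio of the sum, 0.368, was 0.379 with a higher upper limit on genes, 0.398 and 0.326 with mitochondrial limits of 10% and 2.5%, 0.379 at Leiden resolution 1, 0.357 per UMI outside members and mitochondria, 0.353 with median-ratio scaling, 0.345 as a mean over cells, 0.348 after thinning, and 0.506 in the clusters filled by both libraries, an alternative chosen after seeing the data. For fibroblast-like cells (0.153) the values were 0.179 and 0.0795 at the 10% and 2.5% limits, 0.114 with scaling, 0.234 as a mean over cells, 0.122 without the top cell of each library, 0.173 after thinning and 0.762 in the cluster filled by both. In EC-like cells the median log2 ratio of the members, -1.33 at the main setting, was -1.56 at the 2.5% limit and -0.91 in the clusters filled by both. Aerocytes (0.593) gave 0.622 and 0.544 at the 10% and 2.5% limits, 0.640 with a per-cell marker gate, 0.564 with scaling, 0.557 as a mean over cells, 0.551 without the top cells, 0.621 with subtypes from clusters and 0.623 in the clusters filled by both. General capillary EC (0.302) gave 0.331 and 0.263, 0.312 at resolution 1, 0.313 with the gate, 0.292 per UMI outside members and mitochondria, 0.280 with scaling, 0.284 as a mean over cells, 0.283 without the top cells, 0.285 after thinning and 0.458 in the clusters filled by both. Arterial EC (0.473) gave 0.493 with the higher gene limit, 0.346 at 2.5%, 0.454 at resolution 1, 0.444 with members kept for clustering, 0.446 with the gate, 0.505 as a mean over cells, 0.508 after thinning, 0.279 with subtypes from clusters and 0.349 in the clusters filled by both. Venous EC (0.316) gave 0.359 and 0.338, 0.295 with the gate, 0.278 with scaling, 0.2999 as a mean over cells, 0.240 without the top cells, 0.271 after thinning, 0.357 with subtypes from clusters and 0.352 in the clusters filled by both. The share of member UMIs in the top 10% of cells was 37.7% in normoxia and 55.0% in hypoxia without thinning. The ratio of *Maff* passed 1 as a mean over cells (1.07), after thinning (1.92) and in the clusters filled by both (1.27), and that of *Nr4a2* fell below 1 at the 2.5% limit (0.980). All but these 4 of 492 values of single members kept their side of 1. In the clusters filled by both, 14 members moved by over 1.5-fold, some of them on few UMIs, and *Gadd45b* the furthest (0.379 to 0.989). The causes were not tested. Median-ratio scaling moved log2 ratios by 0.06 in EC-like and 0.42 in fibroblast-like cells. No paired analysis was possible because there was 1 library per condition.

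With 1 library each, animals, dissociation and hypoxia cannot be told apart. Depth limits *Myc*, *Nr4a3*, *Egr2*, *Dusp5* and most members in classes with few cells. Clusters that came nearly whole from a single library leave few cells for a comparison within a cluster. The fibroblast-like ratio is nearer to 1 in the cluster that both libraries filled, whose cells were shallow. Subtypes were set from markers of which *Plvap* itself differed between the libraries.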
